A study of Rattus norvegicus with 20 samples.

Results

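Tnf, Il1b, Il6, Ptgs1, Ptgs2, Ptges, Nos2, Spp1 and Cyp19a1 are genes of inflammation in obese adipose tissue, together with aromatase, and their levels were examined in rat mammary cancers and normal mammary tissue. The members were listed by name and then found on the array as probes whose RefSeq accession belongs to one of them. Of the 9 genes, 8 had such a probe, with 10 probes and 73 spots on each array, out of 41012 probes and 43379 spots that were not controls. Aromatase (Cyp19a1) was not analysed here. All 8 genes were among the 36043 genes tested.

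The samples came from female Sprague-Dawley (Jcl:SD) rats, all of which had received 4 Gy of whole-body gamma rays at 7 weeks of age and were then followed for 30 weeks, so no unirradiated group is included. Obesity-prone (OP) and obesity-resistant (OR) rats ate a diet with 45 kcal% fat and were told apart by body weight at the age of irradiation, and lean controls (LC) ate a diet with 10 kcal% fat. There were 6 OP, 3 OR and 3 LC adenocarcinomas, chosen by the submitters for even histology and for the absence of necrosis or many infiltrating cells, and 3 OP, 2 OR and 3 LC normal tissues from age-matched rats. Each sample was hybridised to its own 1-colour Agilent array. Nothing in the labels ties each sample to an animal of its own, so the p-values rest on sample-to-sample spread that may be partly technical.

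Fat tissue of obese animals takes up macrophages, which secrete the cytokines TNF, IL-1 beta and IL-6. These cytokines act through NF-kappa B and related factors to induce cyclooxygenase-2 and inducible nitric oxide synthase. Cyclooxygenases and a terminal synthase make prostaglandin E2, which in breast adipose tissue raises aromatase, the enzyme that makes oestrogens from androgens.

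Levels are given as log2 of the background-corrected signal after quantile normalization, which gives every array the same distribution of values. A probe is called well above background where the scanner software marked at least 0.5 of its spots so. Tnf, Il6, Ptgs1, Spp1 and Nos2 each had 1 probe printed as 10 spots on every array, Ptges had 1 probe in 1 spot, and Il1b and Ptgs2 each had both a 10-spot and a 1-spot probe. For these last genes the probe with the higher mean over all 20 arrays, the 1-spot one in both cases, stood for the gene in the test. For Ptgs2 that probe was the brighter one in normal tissue alone (means 6.67 and 6.31 for the 1-spot and 10-spot probes) and the dimmer one in cancers (6.37 and 6.47), and it passed the filter on dim probes through normal tissue. On cancer arrays 61.3% to 79.3% of all probes were well above background, against 87.7% to 97.7% on normal tissue arrays. The arrays came from 5 slides and 2 scan days. Cancers and normal tissue shared slides 1, 2 and 3, which carried 4 of the 12 cancers, and slides 4 and 5 carried cancers alone. Luminal and adipocyte markers fitted the labelled tissues: all 10 tested luminal epithelial markers were higher in cancers, and all 11 tested adipocyte markers were lower (adjusted p under 0.05 in limma). Over all genes tested, 29% were higher and 33.5% lower. Myoepithelial markers were mixed, with 1 of 6 higher and 3 lower. Of fibroblast markers 6 of 8 were lower, and of endothelial markers 4 of 4. In bulk tissue, fewer cells of a type and less RNA per cell cannot be told apart.

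Il1b, Ptgs1, Ptges and Spp1 were well above background on all 20 arrays. For Tnf, Il6 and Nos2 this held on 4 of 12 cancer arrays, namely OP cancers 2 and 6 and OR cancers 2 and 3, and on all 8 normal tissue arrays. The 1-spot probe of Ptgs2 was well above background on 0 of 12 cancer arrays and 8 of 8 normal tissue arrays, and its 10-spot probe on 2 cancer arrays (OP cancers 1 and 6) and 6 normal tissue arrays. The plot of levels by group marks these calls.

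**Figure D1:**
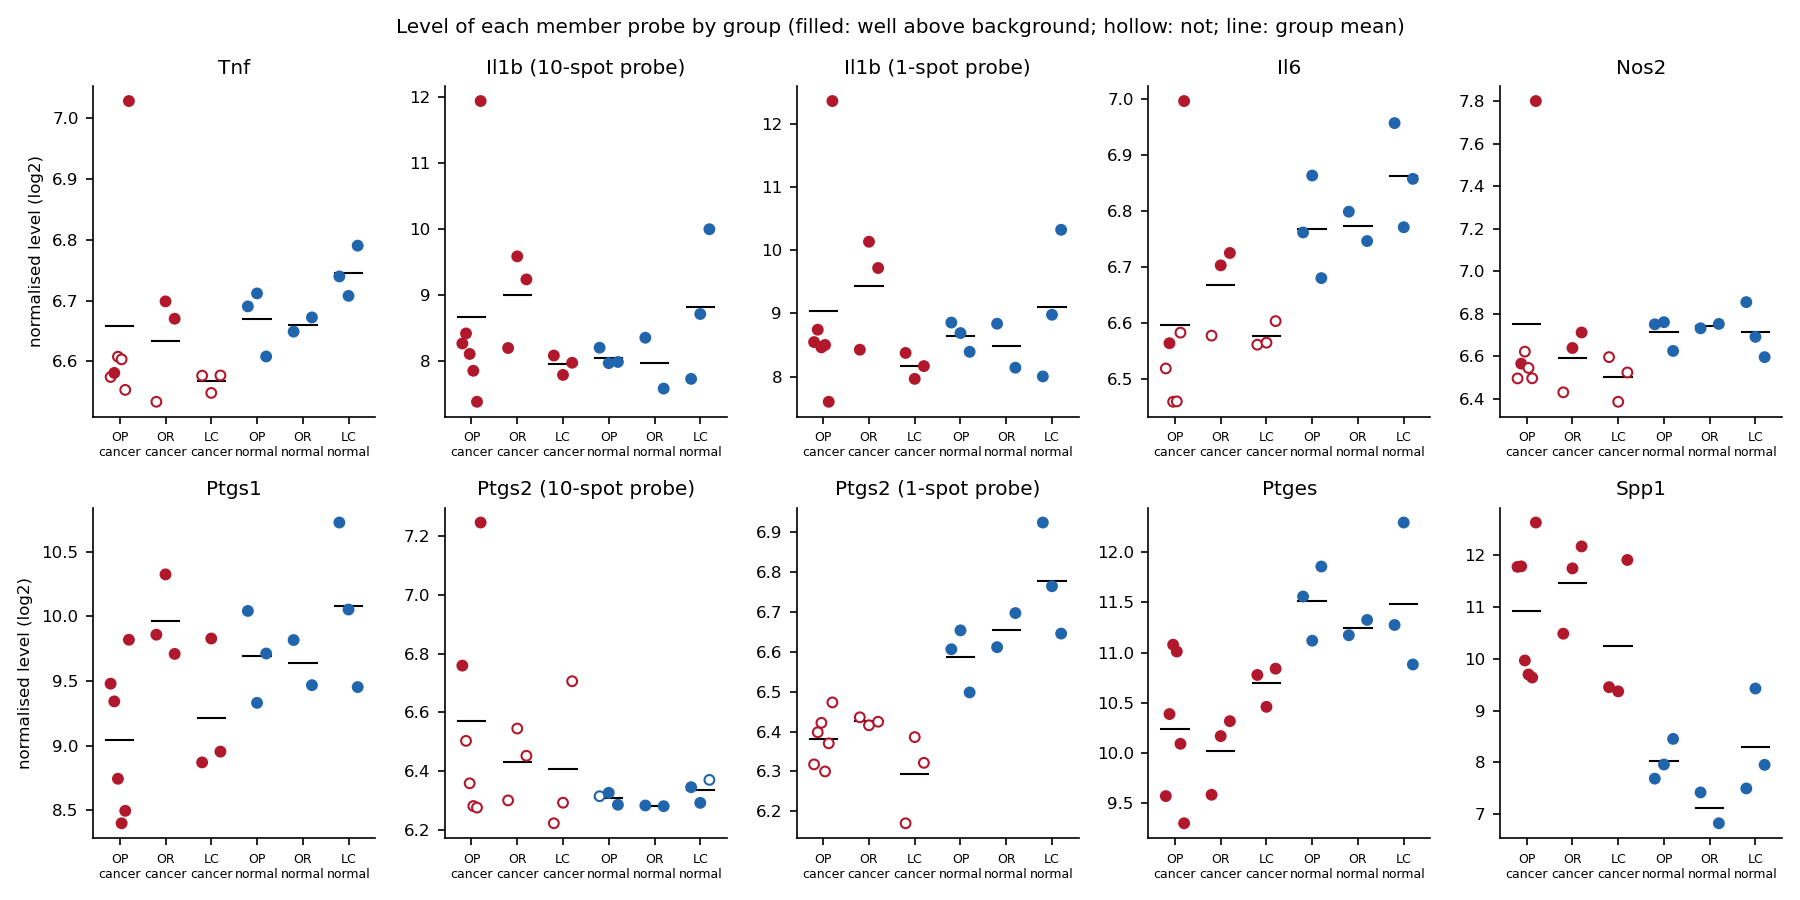
Normalised log2 level of each member probe on the 20 arrays by group, cancers in red and normal tissue in blue. Filled points were well above background, hollow points were not, and lines are group means. Spp1 lies higher in cancers and Ptges lower, and OP cancer 6 is the highest cancer for 8 of the 10 probes.

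Cancers were set against normal tissue to ask which of these genes mark the tumour. Spp1 was 3.05 higher in cancers (log2), an 8.31-fold difference, and Ptges fell by 1.098 on the log2 scale and was 2.14-fold lower. Il6 and the 1-spot probe of Ptgs2 were also lower, by small amounts near background. Tnf, Il1b, Nos2 and Ptgs1 did not pass the test, although Tnf and Nos2 passed it under other scalings and without OP cancer 6. So 4 of the 8 genes passed an adjusted p of 0.05 in limma, 1 higher and 3 lower, where 62.4% of all genes tested passed, 29% higher and 33.5% lower. The count includes Ptgs2 through its 1-spot probe, which was chosen by a mean and passed a filter that both rest on its signal in normal tissue, so its call is no independent support for a lower level in cancers. The 10-spot probe did not pass the test (0.16).

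Il1b, the precursor of a cytokine that macrophages and neutrophils release, had a level (1-spot probe) of 7.60 in the lowest, 8.52 in the middle and 12.36 in the highest OP cancer, 8.43, 10.13 and 9.72 in OR cancers and 8.38, 7.97 and 8.17 in LC cancers. In normal tissue it had 8.86, 8.69 and 8.39 in OP, 8.84 and 8.14 in OR and 8.003, 8.98 and 10.32 in LC. The tissues overlapped, and the highest sample was OP cancer 6 among cancers and LC normal 3 among normal tissues. The difference was 0.13 (SE 0.507, 95% interval -0.94 to 1.21, adjusted p = 0.837 in limma), and 0.26 (SE 0.492, adjusted p = 0.663) for the 10-spot probe.

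Tnf encodes the cytokine tumour necrosis factor. Its level was 6.55, 6.59 and 7.03 in the lowest, middle and highest OP cancers, 6.53, 6.70 and 6.67 in OR cancers and 6.58, 6.55 and 6.58 in LC cancers. Normal tissue had 6.69, 6.71 and 6.61 in OP, 6.65 and 6.67 in OR and 6.74, 6.71 and 6.79 in LC. Apart from OP cancer 6 and OR cancers 2 and 3, the cancers lay below every normal tissue. The difference was -0.07 (SE 0.0592, adjusted p = 0.302), and -0.10 (adjusted p = 0.0295) without OP cancer 6.

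Il6 encodes interleukin 6, which signals through gp130 and STAT3. Its level ran from 6.46 over a median of 6.54 to 7.00 in OP cancers, and was 6.58, 6.70 and 6.73 in OR cancers and 6.56, 6.57 and 6.60 in LC cancers. It was 6.76, 6.86 and 6.68 in OP, 6.80 and 6.75 in OR and 6.96, 6.77 and 6.86 in LC normal tissue. OP cancer 6 lay above all normal tissues, and OR cancers 2 and 3 above the lowest of them. Il6 was 0.19 lower on the log2 scale in cancers (difference -0.19, SE 0.0658, adjusted p = 0.0213). The call was lost once slide entered as a block (-0.25, adjusted p = 0.0546), and also without OR normal replicate 1 (-0.18, adjusted p = 0.0567).

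In the LC group, where no cancer had Tnf, Il6 or Nos2 well above background, each is bounded against the lowest signal that was. Tnf was at least 1.12-fold lower in LC cancers than in LC normal tissue (measured means 6.57 and 6.75), Il6 at least 1.21-fold lower (6.58 and 6.86), and Nos2 at least 1.095-fold lower (6.502 and 6.71). These folds bound the measured means and leave out sampling error. None of the differences passed the limma test within the LC group, with adjusted p = 0.171 for Tnf, 0.0537 for Il6 and 0.515 for Nos2.

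Prostaglandin synthesis starts from cyclooxygenases. Ptgs1, the constitutive cyclooxygenase-1, had a level of 8.40, 9.04 and 9.82 in the lowest, middle and highest OP cancers, 9.86, 10.33 and 9.71 in OR cancers and 8.87, 9.83 and 8.95 in LC cancers. Normal tissue had 10.04, 9.33 and 9.71 in OP, 9.82 and 9.47 in OR and 10.73, 10.05 and 9.45 in LC. The tissues overlapped. The difference was -0.40 (SE 0.224, adjusted p = 0.134 in limma).

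Ptgs2 is the inducible cyclooxygenase-2, and its probes gave opposite directions. With the 1-spot probe, cancers ranged from 6.17 over a median of 6.39 to 6.47, and normal tissue from 6.50 over 6.65 to 6.92, with no overlap, as for 20.2% of all genes tested. The difference was -0.31 (SE 0.0476, adjusted p = 3.94e-05). Since 0 of 12 cancers were well above background for it, Ptgs2 by this probe was at least 1.103-fold lower in cancers (measured means 6.37 and 6.67). With the 10-spot probe, cancers ranged from 6.22 over 6.40 to 7.25 and normal tissue from 6.28 over 6.30 to 6.37, and the difference was 0.16 (SE 0.114, adjusted p = 0.230). OP cancers 1 and 6 and LC cancer 3 were the highest of all samples for it, at 6.76, 7.25 and 6.71, although LC cancer 3 was not well above background.

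Ptges, the microsomal synthase that turns prostaglandin H2 into prostaglandin E2, had a level of 9.57, 10.39, 11.08, 11.01, 10.09 and 9.30 in OP cancers 1 to 6, 9.58, 10.17 and 10.32 in OR cancers and 10.78, 10.46 and 10.84 in LC cancers. In normal tissue it was 11.56, 11.12 and 11.86 in OP, 11.17 and 11.33 in OR and 11.28, 12.30 and 10.88 in LC. All cancers apart from OP cancers 3 and 4 lay below every normal tissue. Ptges fell by 1.098 on the log2 scale (mean 10.32 ± 0.586 in 12 cancers and 11.42 ± 0.455 in 8 normal tissues, SD, each mean being that of the 3 group means). Its SE was 0.248 and its adjusted p 0.00108 in limma. The difference was -1.25, -1.14 and -1.77 within slides 1, 2 and 3.

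Nos2, the inducible nitric oxide synthase of activated macrophages, ranged in cancers from 6.39 over a median of 6.56 to 7.80, and in normal tissue from 6.60 over 6.74 to 6.85. OP cancer 6 was far above all other samples, and the next cancer was at 6.71. The difference was -0.11 (SE 0.143, adjusted p = 0.539), and -0.18 (SE 0.0522, adjusted p = 0.00829) without OP cancer 6.

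Spp1 encodes osteopontin, a secreted phosphoprotein that binds integrins and CD44 and is made by macrophages and carcinoma cells. Its level was 11.77, 11.78, 9.97, 9.70, 9.64 and 12.62 in OP cancers 1 to 6, 10.48, 11.74 and 12.16 in OR cancers and 9.45, 9.37 and 11.90 in LC cancers. It was 7.69, 7.96 and 8.45 in OP, 7.42 and 6.83 in OR and 7.50, 9.43 and 7.95 in LC normal tissue. Only LC normal 2, at 9.43, lay above the lowest cancer. Spp1 rose by 3.05 (SE 0.478, 95% interval 2.04 to 4.07, adjusted p = 4.17e-05, means 10.87 ± 1.22 in 12 cancers and 7.82 ± 0.777 in 8 normal tissues, SD). Within slides 1, 2 and 3 it differed by 3.02, 3.51 and 2.74.

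The direction of all genes together depends on the scaling, and for the dim members the size does too. The median of all genes was -0.03 after quantile normalization, -1.51 when the processed signal was scaled to each array's 75th percentile and -0.80 with that scaling after normexp, and the share of calls that were higher in cancers was 46.4%, 17.7% and 17.3%. Under these scalings Tnf stood at -3.09 and -1.11 (adjusted p = 1.03e-07 and 5.33e-06) and Nos2 at -3.14 and -1.13 (adjusted p = 3.03e-05 and 0.000107), so both passed the test there, and 6 of the 8 genes did. Il6 stood at -3.25 and -1.22 and the 1-spot probe of Ptgs2 at -4.01 and -1.29. Most cancers were not well above background for these probes, so the sizes are differences from signals near background. The 10-spot probe of Ptgs2 turned to -2.19 and -0.71 under the 75th-percentile scalings, so both Ptgs2 probes were lower there. Spp1 stood at 3.15 and 2.76 and Ptges at -1.09 and -0.85 under these scalings, and both passed the test.

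The processed intensities of Tnf, Il6, Nos2 and the 1-spot probe of Ptgs2 lay close to each other within some arrays of either tissue. On every cancer array, however, the 1-spot probe of Ptgs2 was the lowest of them. In LC cancer 1 it was at 2.44, against 6.62 for Tnf and 6.58 for Il6. In OP cancer 4 the intensities were 5.51 for Tnf, 4.55 for Il6, 5.26 for Nos2 and 4.05 for Ptgs2. In OP normal 2 they were 101, 117, 115 and 95.6 in the same order. The 10-spot probe of Ptgs2 was lower than these on normal tissue arrays, at 43.4 in OP normal 2. Across arrays, Tnf ran from 5.51 over a median of 8.79 to 33.9 in cancers and from 35.8 over 46.4 to 101 in normal tissue, and Nos2 from 4.50 over 8.17 to 150.03 in cancers and from 27.5 over 53.6 to 115 in normal tissue. OP cancer 6 gave the highest cancer value of both. The part of the higher normal tissue signal in these differences was not tested.

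**Figure D2:**
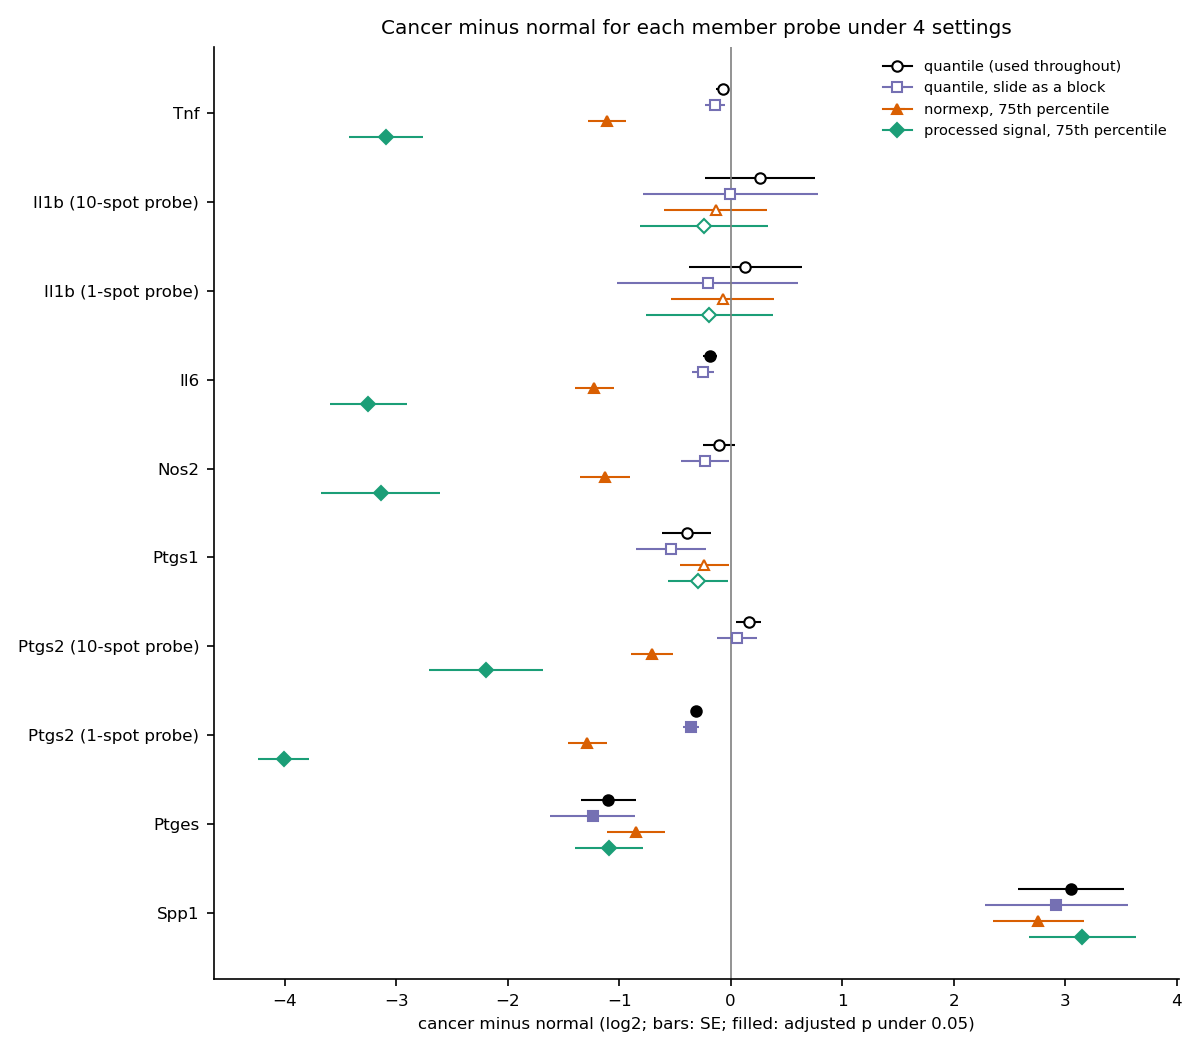
Cancer minus normal (log2) for each member probe under 4 settings, with SE as bars and filled symbols for an adjusted p under 0.05. Spp1 and Ptges keep their place under all 4, while Tnf, Il6, Nos2 and both Ptgs2 probes move down under the 75th-percentile scalings.

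The same comparison was made within each obesity group. In OP rats 3 of 8 genes passed, where 44.6% of all genes did (21.2% higher and 23.4% lower): Spp1 at 2.88 (SE 0.716, adjusted p = 0.00427), Ptges at -1.27 (SE 0.372, adjusted p = 0.0112) and the 1-spot probe of Ptgs2 at -0.21 (SE 0.0714, adjusted p = 0.0279). In OR rats Spp1 alone passed, at 4.34 (SE 0.925, adjusted p = 0.00294), against 28.4% of all genes (13.9% higher and 14.5% lower). In LC rats the 1-spot probe of Ptgs2 alone passed, at -0.49 (SE 0.0825, adjusted p = 0.000320), against 43.6% of all genes (19.9% higher and 23.7% lower). Since no cancer was well above background for that probe, it was at least 1.02-fold lower in OP cancers (measured means 6.38 and 6.59 in OP cancers and OP normal tissue) and at least 1.16-fold lower in LC cancers (6.29 and 6.78). That probe entered the test through its signal in normal tissue, so these calls are no independent support for a lower level in cancers. The 10-spot probe of Ptgs2 stood at 0.26 in OP and 0.07 in LC rats and did not pass. Spp1 in LC rats stood at 1.95 (SE 0.827, adjusted p = 0.0671), and Ptges at -1.23 (adjusted p = 0.0662) in OR and -0.79 (adjusted p = 0.147) in LC rats. The Ptgs2 call in OP rats was lost on scan day 2 alone (-0.23, adjusted p = 0.153), once slide (-0.25, adjusted p = 0.0779) or replicate number (-0.21, adjusted p = 0.0974) entered as a block, and without OP cancer 4, OP normal 1 or OP normal 2 (-0.19, -0.20 and -0.17, adjusted p = 0.0521, 0.0871 and 0.130). The Ptges call in OP rats ended without OP normal 3 (-1.101, adjusted p = 0.0550). Without OP cancer 6, Ptges passed in OR rats (adjusted p = 0.0443), and Tnf, Il6 and Spp1 passed in LC rats (adjusted p = 0.0303, 0.00610 and 0.0479), so that 2 and 4 genes passed there. That sample is in neither group, so these differences did not change and only their SE fell. In OP rats Il6 passed in limma without OP cancer 6, at -0.25 (adjusted p = 0.00670), against -0.17 (adjusted p = 0.173) with it.

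A test of the difference itself asked whether the tumour difference in OP rats departed from that in the other rats. No member passed (0 of 8, and 0% of all genes; 4.29% of all genes had an unadjusted p under 0.05). The interaction was -0.26 for Spp1 (SE 0.948, 95% interval -2.27 to 1.74) and -0.26 for Ptges (SE 0.492, interval -1.30 to 0.78), with an adjusted p of 0.9997 for both in limma.

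Between obesity groups within 1 tissue, the members were compared 10 ways, as 80 gene tests in limma, of which 0 passed an adjusted p of 0.05. Over all genes, too, 0% passed in each of the 10, and the share with an unadjusted p under 0.05 was 10.9% in OP minus OR, 7.21% in OP minus LC, 4.19% in OR minus LC, 11.4% in OP minus the mean of the others and 4.07% in high-fat minus LC cancers. In normal tissue these shares were 0.613%, 8.81%, 8.98%, 2.18% and 12.1%. The 1 member test with an unadjusted p under 0.05 was that of Ptgs1 in OP minus OR cancers, at -0.92 (SE 0.335, 95% interval -1.65 to -0.18, unadjusted p = 0.0189, adjusted p = 0.401). The 3 OR cancers, at 9.71 to 10.33, overlapped the OP cancers, at 8.40 to 9.82, through OP cancer 6. With slide as a block the Ptgs1 difference was -0.02 (SE 0.898, adjusted p = 0.998), an estimate that runs through the LC cancers. It was -0.81 (SE 0.380) with slide as a random block, -0.92 (SE 0.349) with scan day and -0.78 (SE 0.204) with replicate number as a block, and none of these passed (adjusted p = 0.614, 0.351 and 0.288 in limma). OP cancers 3 to 6 were alone on slide 4, and no slide held both OP and OR cancers.

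Il1b in OP minus LC cancers stood at 0.87 (1-spot probe, 95% interval -0.98 to 2.71) with all samples and at 0.20 without OP cancer 6. In OP minus OR cancers it stood at -0.39 (interval -2.23 to 1.45) and at -1.05 without that sample (adjusted p = 0.227). Spp1 in OP minus LC cancers was 0.67 (interval -1.08 to 2.42) and in OP minus OR cancers -0.55 (interval -2.30 to 1.20). Ptges in OP minus LC cancers was -0.45 (interval -1.27 to 0.37). The precision left sizeable differences in Il1b and Spp1 undetectable with these samples. Without OP cancer 6, 45 genes of the 36043 passed in OP minus OR cancers and 214 in OP minus LC cancers, 0 of them members.

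**Figure D3:**
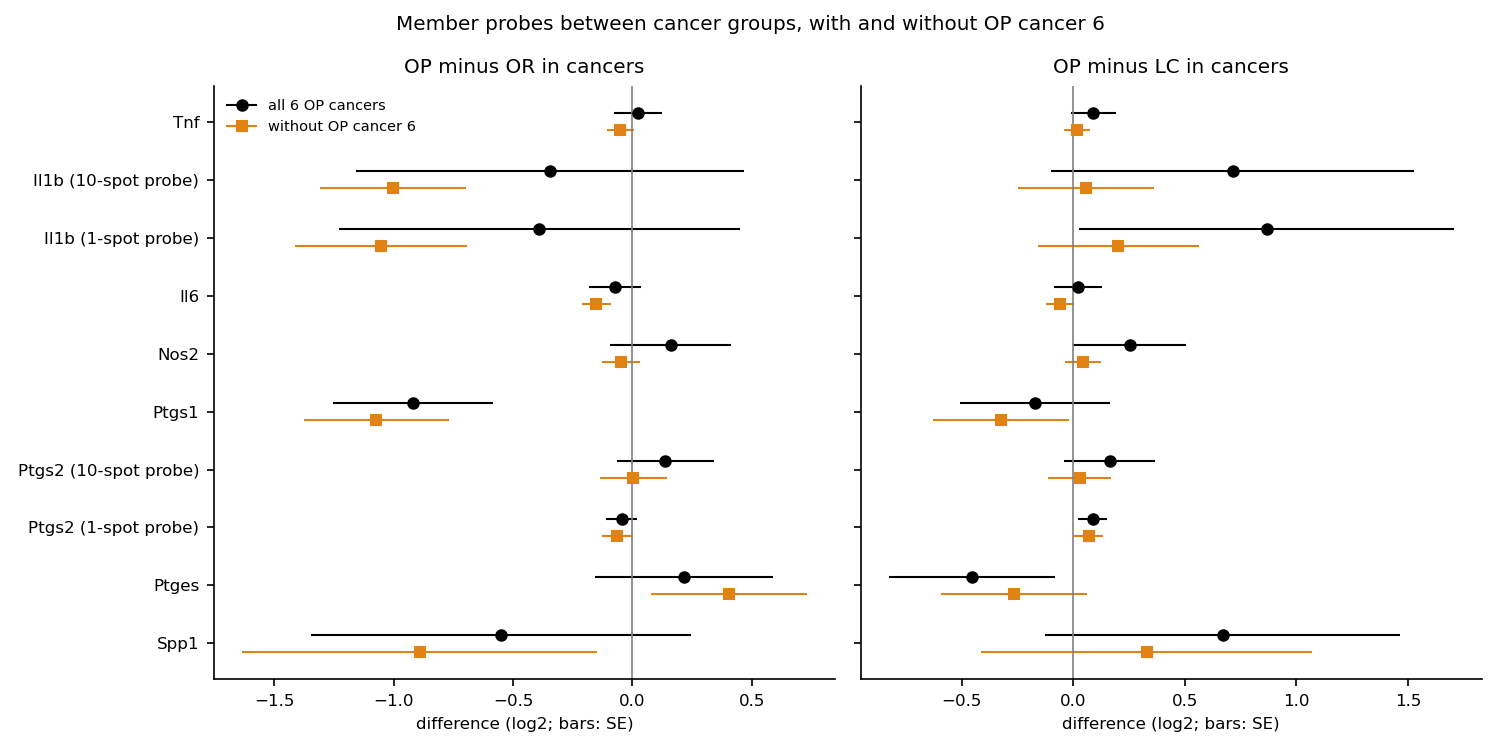
Differences between cancer groups (log2, bars SE) for each member probe, with all 6 OP cancers in black and without OP cancer 6 in orange. Il1b, Nos2 and Tnf move toward lower OP values when that sample is left out, and Ptgs1 lies at -0.92 and -1.07 in OP minus OR.

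In normal tissue the comparison of the high-fat diet (OP and OR) with the LC diet gave -0.53 for Il1b (1-spot probe, 95% interval -1.73 to 0.67), -0.71 for Spp1 (interval -1.80 to 0.38) and -0.41 for Ptgs1 (interval -1.15 to 0.33), none of which passed. The interval for Ptges was -0.91 to 0.70.

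OP cancer 6 stood apart from the other cancers. Of the 10 member probes, 8 were highest in it among the 12 cancers, and Ptges was lowest in it. The 8 include both probes of Il1b and both of Ptgs2, whereas the share of all genes highest in it, 10.2%, counts each gene once. The 1-spot probe of Ptgs2 was not well above background in it and was only 1.03-fold above the next cancer. Il1b reached 11.94 with the 10-spot probe, 5.13-fold above the next cancer. Nos2 reached 7.80 and was 2.13-fold above the next, and the 10-spot probe of Ptgs2 reached 7.25 and was 1.40-fold above. Tnf and Il6 were 1.26-fold and 1.21-fold above the next cancer.

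The replicate spots give the error of a spot and of a probe's mean over its spots. The median SD over spots of 1 probe on 1 array, over all 20 arrays, came first. It was 0.0880 for Tnf, 0.175 for Il1b, 0.106 for Il6, 0.126 for Nos2 and 0.0900 for Ptgs2. The levels given here are means over these spots, and the median SE of such a mean was 0.0293, 0.0552, 0.0345, 0.0399 and 0.0285. Over the 11 other cancers the SD between samples was 0.0505, 0.637, 0.0833, 0.0945 and 0.183 for the same probes. All 10 spots of Tnf, Nos2 and Ptgs2 and 8 of 10 spots of Il6 were well above background in OP cancer 6. Spots share an array and are no replicates of the condition.

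**Figure D4:**
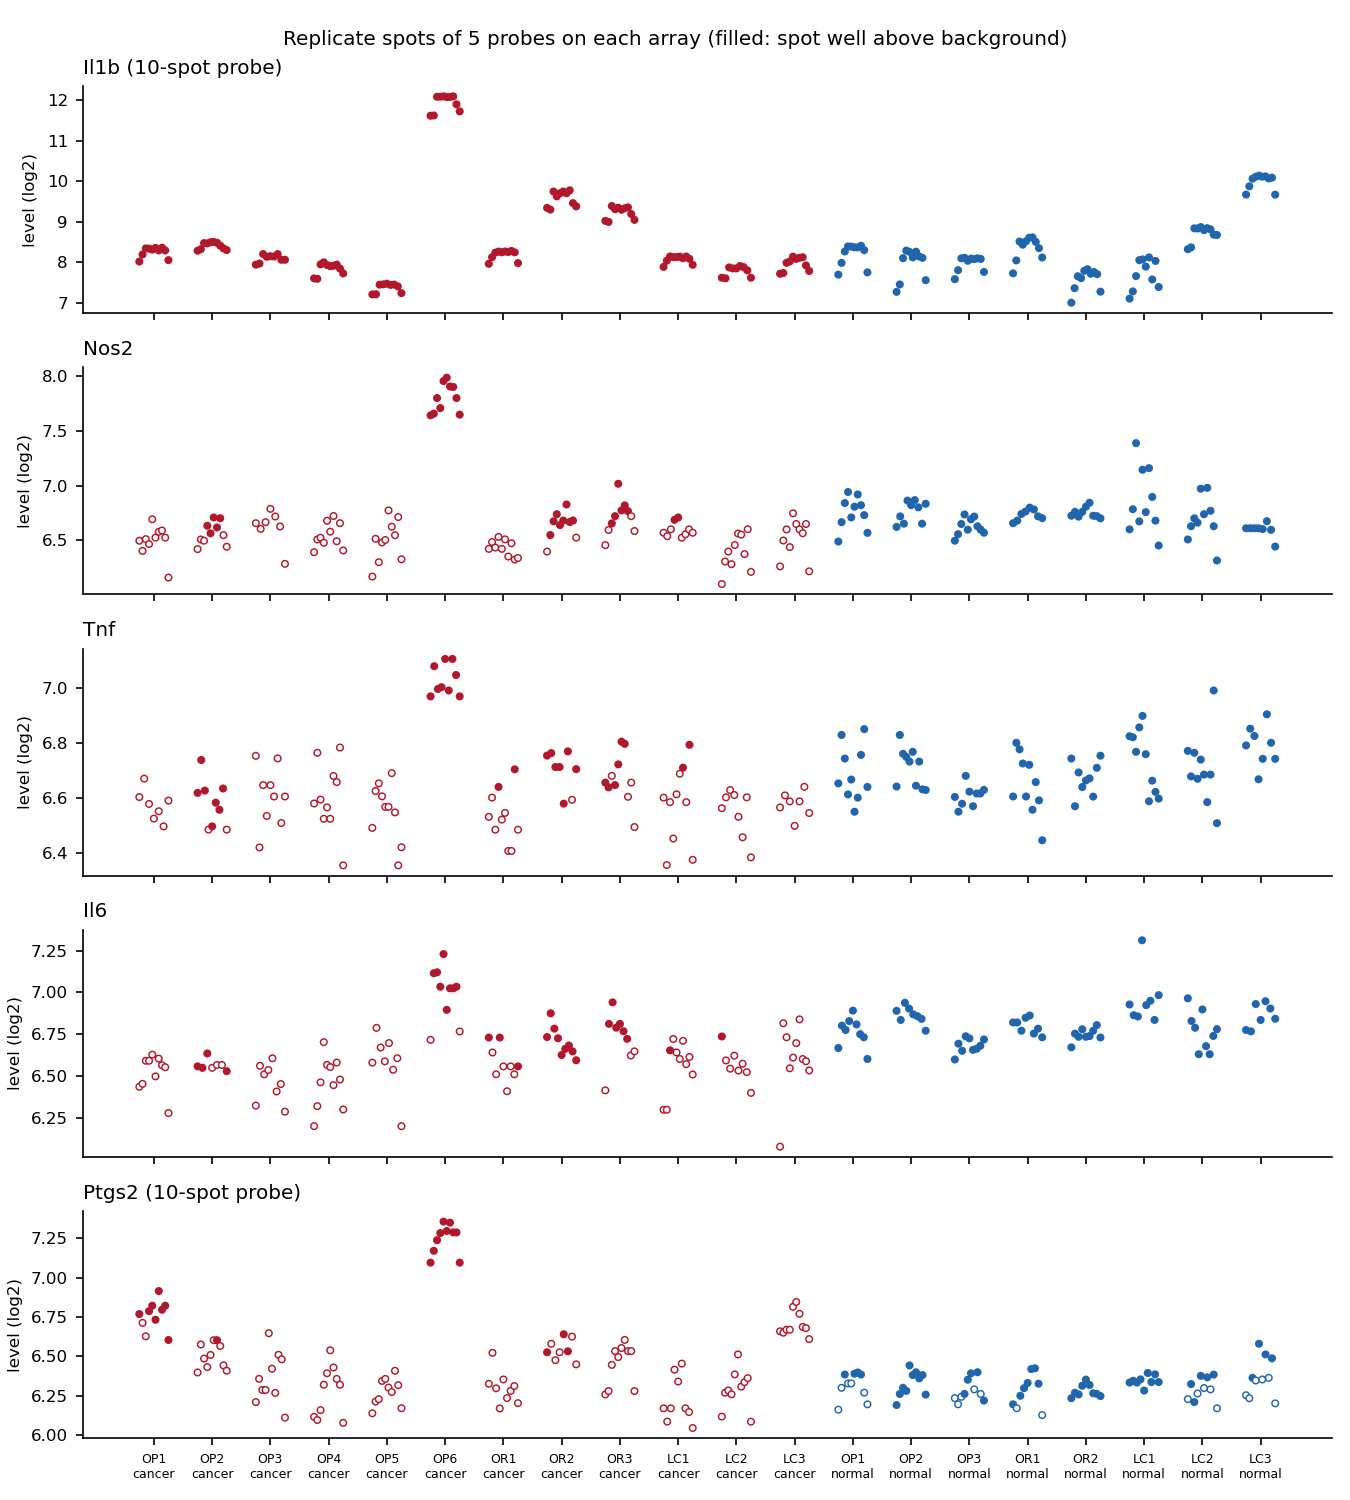
Log2 level of each spot of 5 probes printed as 10 spots, on the 12 cancer arrays (red) and 8 normal tissue arrays (blue), without spots marked as outliers. Filled spots were well above background. In OP cancer 6 the spots of Il1b and Nos2 all lie above those of every other cancer.

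The promoter windows of Il6, Tnf, Il1b and Ptgs2 are shown because these are inducible members highest in OP cancer 6 for which a window was available. Nos2, also inducible and highest there, had no window. They run from 250 bases before to 50 after the gene start, in RefSeq's GRCr8 assembly, which held a window for 7 of the 9 members. Capitals mark matches on either strand to 5 motifs. The NF-kappa B motif was GGG and CC with any base at the 5 places between them. The cAMP response element was TGACGTCA and the C/EBP motif TTGCNNAA. The TATA box was searched as TATAAA. For the E-box the letters were CACGTG.
Il6 (chr4:5894526-5894825, minus strand): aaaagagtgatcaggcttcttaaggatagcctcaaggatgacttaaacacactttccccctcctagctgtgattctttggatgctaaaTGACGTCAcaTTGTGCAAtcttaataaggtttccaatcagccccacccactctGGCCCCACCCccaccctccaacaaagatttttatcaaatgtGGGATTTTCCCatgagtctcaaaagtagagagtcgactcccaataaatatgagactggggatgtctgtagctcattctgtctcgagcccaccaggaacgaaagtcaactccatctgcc
Tnf (chr20:3626435-3626734, plus strand): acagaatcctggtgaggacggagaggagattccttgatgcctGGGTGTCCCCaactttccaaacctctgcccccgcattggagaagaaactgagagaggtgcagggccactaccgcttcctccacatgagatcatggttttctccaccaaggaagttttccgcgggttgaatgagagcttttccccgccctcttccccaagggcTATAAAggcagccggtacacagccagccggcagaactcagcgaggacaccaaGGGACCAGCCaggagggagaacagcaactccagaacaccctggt
Il1b (chr3:137036532-137036831, minus strand): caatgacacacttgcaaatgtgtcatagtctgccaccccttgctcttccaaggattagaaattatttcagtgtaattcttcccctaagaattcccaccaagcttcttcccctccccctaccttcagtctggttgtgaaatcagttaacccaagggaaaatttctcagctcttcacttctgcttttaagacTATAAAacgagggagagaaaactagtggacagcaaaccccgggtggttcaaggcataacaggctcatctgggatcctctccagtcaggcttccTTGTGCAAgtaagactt
Ptgs2 (chr13:64713813-64714112, plus strand): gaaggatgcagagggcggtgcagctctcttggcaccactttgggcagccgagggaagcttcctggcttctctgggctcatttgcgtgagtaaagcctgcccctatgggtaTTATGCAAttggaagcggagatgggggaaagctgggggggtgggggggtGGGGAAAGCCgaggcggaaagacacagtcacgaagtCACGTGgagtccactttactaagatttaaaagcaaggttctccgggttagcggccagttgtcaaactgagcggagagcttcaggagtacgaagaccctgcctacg

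The Il6 window held 3 NF-kappa B matches, 2 of which overlap, 1 cAMP response element and 1 C/EBP match, the Tnf window 2 NF-kappa B matches and 1 TATA box, the Il1b window 1 C/EBP match and 1 TATA box, and the Ptgs2 window 1 NF-kappa B match, 1 C/EBP match and 1 E-box. The Il1b window held 0 NF-kappa B matches. Of the windows not printed, that of Spp1, which was also highest in OP cancer 6, held 0, that of Ptgs1 2, and that of Ptges, which was lowest there, 3. The Spp1 window (chr14:5619755-5620054, minus strand) lay inside the listed gene (5613569 to 5620695) and not at its listed start, unlike the other windows. Of the 33465 windows of this length, 47.3% held the NF-kappa B letters, 1.83% the cAMP response element, 10.6% the C/EBP, 14.2% the TATA box and 6.42% the E-box letters. A match is a description of the letters alone.

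Markers of other cells moved with the members in OP cancer 6. The 4 measured neutrophil markers were all highest there, with a list mean of 10.97 against 6.54 to 7.81 in the other cancers and 6.81 to 7.19 in normal tissue. The calprotectin subunits S100a8 and S100a9 were at 14.17 and 14.25, against at most 9.27 and 9.46 in the other cancers. The chemokine receptor Cxcr2 was at 7.33 and the collagenase Mmp8 at 8.13, and 0 and 1 of the 11 other cancers had them well above background. Of 11 macrophage markers 10 were highest there, with a list mean of 13.25 against 10.60 to 12.17 in the other cancers and 11.40 to 12.72 in normal tissue. So were 11 of 13 T and NK cell, 2 of 2 B and plasma cell, 7 of 8 fibroblast and 3 of 4 endothelial markers. The counts were 4 of 11 for adipocyte, 0 of 6 for myoepithelial and 0 of 10 for luminal epithelial markers. Over all genes, 10.2% were highest in OP cancer 6. The part of these cells in the levels of Il1b, Nos2, Tnf, Il6 and Ptgs2 was not tested.

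Among normal tissues LC normal 3, the highest for Il1b, had a T and NK cell list mean of 11.01 (7.85 to 8.42 in the others) and a B and plasma cell list mean of 11.13 (6.81 to 7.28). Of its neutrophil markers, Cxcr2 at 6.42 was the highest of the normal tissues, where the others had at most 6.37, while Mmp8 at 6.09 and S100a9 at 7.70 were the lowest and S100a8 was at 7.16 (6.87 to 7.40 in the others), with a list mean of 6.84. Its macrophage list mean of 12.67 was below that of LC normal 1 (12.72) and above the rest. Of the 11 macrophage markers, only Lyz2 at 15.79, Aif1 at 13.27 and Tyrobp at 14.45 were the highest of the normal tissues. The rest of that list was higher in some other normal tissue, such as Cd14 (13.66, up to 15.81 in the others) and C1qb (15.85, up to 17.18). The part of these cells in its Il1b level was not tested.

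**Figure D5:**
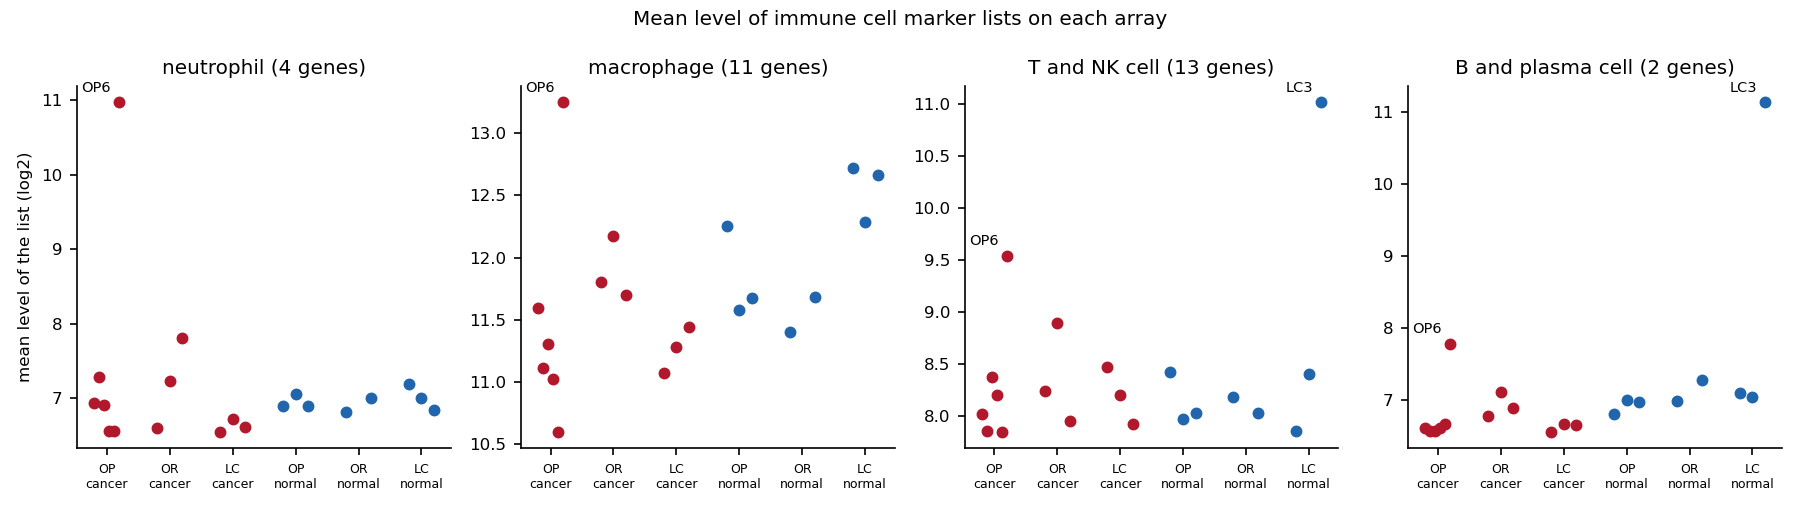
Mean log2 level of 4 immune marker lists on each array, by group. OP cancer 6 is the highest cancer for all 4 lists, and LC normal 3 is the highest sample for T and NK cell and B and plasma cell markers.

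The rest of the pathway was read from lists of genes around the members, in cancer minus normal, where 62.4% of all genes passed (29% higher and 33.5% lower). The counts of the prostaglandin, TNF, steroid and osteopontin lists lay near that share, with 15 of 24, 18 of 29, 20 of 33 and 5 of 8 genes called. Of 24 genes of prostaglandin synthesis and reception 6 were higher and 9 lower (median -0.16). The prostacyclin receptor Ptgir (0.53, adjusted p = 1.22e-06) and the prostaglandin transporter Slco2a1 (1.41, adjusted p = 8.92e-06) rose. The prostaglandin E2 receptor Ptger3 (-1.25, adjusted p = 2.82e-07) and the prostaglandin F receptor Ptgfr (-0.30, adjusted p = 5.07e-06, with 0 of 12 cancers well above background) fell. Of 29 genes of TNF, IL-1 and IL-6 signalling 8 were higher and 10 lower (median 0.09), with the IL-1 receptor accessory protein Il1rap at 1.32 (adjusted p = 4.93e-08) and Adam17, the protease that sheds TNF, at 1.46 (adjusted p = 6.85e-07). The IL-6 family cytokines Osm (-0.69, adjusted p = 3.86e-05) and Lif (-0.37, adjusted p = 4.87e-05) fell.

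Against the same 62.4% of all genes, 4 of 8 NF-kappa B genes and 12 of 13 genes of nitric oxide and arginine passed. The NF-kappa B list held 17 genes, of which only 8 had a named probe and were tested. Of 8 NF-kappa B genes 1 was higher and 3 lower (median -0.17): the subunit Rela rose (0.65, adjusted p = 0.00393), while the adhesion molecule Vcam1 (-2.01, adjusted p = 0.000767) and the kinase regulator Ikbkg (-0.32, adjusted p = 0.000837) were among those that fell. Of 13 genes of nitric oxide and arginine 7 were higher and 5 lower (median 0.23), with Ddah1, which breaks down an inhibitor of nitric oxide synthase, at 2.44 (adjusted p = 7.43e-07) and the urea cycle enzyme Asl at 0.95 (adjusted p = 5.67e-05). The guanylate cyclase subunit Gucy1a1 (-1.41, adjusted p = 9.70e-07) and Ddah2 (-1.29, adjusted p = 5.17e-05) fell.

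Around aromatase, 7 of 33 genes of steroid synthesis and oestrogen handling were higher and 13 lower (median -0.06), near the share of all genes (62.4%). The 5-alpha-reductase Srd5a1 (1.31, adjusted p = 5.71e-07) and Hsd17b12 (1.36, adjusted p = 6.70e-07) rose, and the sulphotransferase Sult1a1 (-4.02, adjusted p = 1.12e-10) and the hydroxysteroid dehydrogenase Akr1c14 (-1.92, adjusted p = 4.19e-08, 1 of 12 cancers well above background) fell. Of 8 osteopontin receptors and related bone matrix proteins 2 were higher and 3 lower (median -0.05), with Bglap, or osteocalcin (0.13, adjusted p = 0.0122), and the integrin Itgb3 (0.24, adjusted p = 0.0145, 2 of 12 cancers well above background) higher. The bone matrix protein Dmp1 (-0.48, adjusted p = 2.97e-05) and the integrin Itgb1 (-0.54, adjusted p = 0.00523) were lower. The osteopontin list held 15 genes, of which only 8 had a named probe and were tested. The median of all genes was -0.03. Within the obesity groups, Sult1a1 had the smallest p of all these listed genes in each, at -3.84 in OP, -3.88 in OR and -4.34 in LC rats. It was followed by Il1rap (1.15) and Akr1c14 (-1.62) in OP rats, Hsd17b12 (1.85) and Ptger3 (-1.56) in OR rats, and Akr1c14 (-2.47) and Il1rap (1.42) in LC rats. No listed gene passed in the interaction or between obesity groups.

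The genes whose level followed a member most closely over the 12 cancers were sought among 5715 named genes well above background on all of them, and the correlations are descriptions across samples that share slides and groups. For Spp1 they were Hsd17b1 (Pearson r 0.90, Spearman rho 0.87), Cldn9 (0.90, 0.87) and Pdlim1 (0.89, 0.83). For Ptges they were Rnd3 (0.90, 0.83), Cxadr (0.83, 0.80) and Bloc1s6 (0.82, 0.89), and for Ptgs1 Mob1a (0.87, 0.86), Mmp12 (0.81, 0.76) and Pde6h (0.81, 0.80). For the 10-spot probe of Il1b they were Zc3h12a (0.97, 0.85), Mylk2 (0.96, 0.73) and C5ar1 (0.96, 0.95). Without OP cancer 6 and OR cancer 2, the 2 cancers farthest from the median of Il1b, r fell to 0.80 for Zc3h12a, 0.84 for Mylk2 and 0.78 for C5ar1. For its 1-spot probe they were C1s (0.96, 0.78), Cxcl13 (0.95, 0.62) and Zc3h12a (0.95, 0.68), or 0.87, 0.77 and 0.70 without these 2. For Spp1, Ptges and Ptgs1, r without the 2 farthest cancers was 0.88, 0.86 and 0.91, then 0.85, 0.77 and 0.80, then 0.83, 0.70 and 0.86, in the order named.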

How the data were processed

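The members and gene lists were chosen with earlier results of these data known. RNA from frozen tissue was labelled with Cy3 and hybridised to Agilent arrays, per the labels. The deposited scanner files hold spot and local background intensity and quality flags (other, 0 or 1), per the file headers. Feature Extraction 10.7.3.1 is named in the submitters' processing notes, while the file headers give version 9.5.1.1. The authors also deposited a table of log2 values. Set against the scanner values, these are processed signals less the 75th percentile of their array and centred probe by probe. The series' design text names Robust Multi-array Average normalization, and where it was applied is not given in the sources used here. The table served as an alternative (20793 of 20824 entries matched, 5 of them member probes).

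Median spot signals were background-corrected with normexp (offset 50) and quantile-normalised, outlier spots were left out and spots of a probe averaged. Of 41012 probes, 40072 were kept: 115 had no unmarked spot on some array, and 825 were not well above background on 0.5 of the arrays of any group. The brightest probe stood for a gene, which gave 36043 genes, 8662 of them with a symbol. Names came from RefSeq accessions. An unnamed accession counted as a gene of its own. No spot was saturated (0). Members and, of each pathway list, the 2 risers and 2 fallers with the smallest p were named, with up to 3 listed genes by smallest p in the other comparisons, and the 3 genes most like each member well above background on all cancers.

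Tests used limma 3.58.1 in R 4.3.3, checked on simulated data, with Benjamini-Hochberg adjustment over all genes and a threshold of 0.05. Residual degrees of freedom were 14 with all 20 arrays, 9 for cancers alone and 5 for normal tissue alone. Cancer minus normal weighted the 3 groups of each tissue equally. The number of arrays limits the precision. At-least folds set the brighter group's mean against, on each dim array, the higher of the probe's signal and the lowest signal well above background. They bound measured means and carry no sampling error. Alternatives were other scalings, offsets and filters, slide, scan day and replicate blocks, array weights, and leaving out each sample. Scan day 2 alone was added after seeing the data. Figures used Python 3.11.15 with matplotlib 3.10.9.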

Additional observations from a re-analysis of the deposited data

Results flagged for a closer look

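In OP cancer 6 the levels of 4 genes lay farther from the other OP cancers than Dixon's 95% value for 6 samples allows. Tnf was at 7.03 (next OP cancer 6.61), Il6 at 7.00 (6.58), Nos2 at 7.80 (6.62), and Il1b at 11.94 (8.41) with the 10-spot probe and 12.36 (8.74) with the 1-spot probe. Chance marks about 1 in 20 groups, and 8.96% of all genes had 1 OP cancer past this value, with OP cancer 6 highest and past it for 2.55% of all genes. The same sample had the highest neutrophil list mean, 10.97, against 7.81 in the next cancer, and its part in these levels was not tested.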

How the results depend on the processing

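Spp1 and Ptges kept their direction and their call in cancer minus normal under all 13 alternatives and all 20 fits without 1 sample, with Spp1 from 2.75 to 3.30 and Ptges from -1.32 to -0.85 over the alternatives. The 1-spot probe of Ptgs2 did so under the 12 alternatives that measured it (-4.01 to -0.30). The number of member genes called in cancer minus normal was 4, but 6 under both 75th-percentile scalings, 6 without OP cancer 6, 5 with the replicate block and on scan day 2 alone, 3 with slide as a block, 3 without OR normal 1, and 2 (of the 4 tested) in the authors' value table. With 75th-percentile scaling of the processed signal, and also with that scaling after normexp, the count was 6 against 3 in OP, 5 against 1 in OR and 5 against 1 in LC rats. In LC rats it was 2 with a normexp offset of 16, 2 with scan day as a block and 3 with the replicate block. Without 1 sample it was 1 to 2 in OR rats and 1 to 4 in LC rats. OR rats had 2 without OP cancer 6, LC normal 1 or LC normal 2, none of which is an OR sample. LC rats had 4 without OP cancer 6, which is no LC sample, and 2 without LC cancer 2, LC normal 2 or LC normal 3. The 75th-percentile scalings turned the 10-spot probe of Ptgs2 to -2.19 and -0.71 in cancer minus normal, to -2.73 in LC rats (processed signal), and to -0.74 in OP and -0.84 in OR rats (after normexp), and turned Nos2 in OP rats to -3.01 and -1.09. The cause was not tested.

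Replicate numbers gave no clear sign of pairing: 5 of 40 same-numbered pairs had a correlation over 0.1, from -0.35 to 0.28. Most of these pairs joined different obesity groups, and the group means rest on few arrays, so the check cannot exclude pairing. With the replicate block 5 members passed in cancer minus normal, Nos2 among them (-0.17, adjusted p = 0.0359). Slides 1, 2 and 3 held only 4 of the cancers, so blocked values set few cancers against normal tissue. Low signal limits Tnf, Il6, Nos2 and Ptgs2, which most cancers did not show well above background.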
